A study of Mus musculus with 12 samples.

Results

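The growth hormone and insulin-like growth factor (IGF) axis was followed through a set of 7 genes chosen by name: the hormone gene Igf1, the growth hormone receptor gene Ghr, the binding protein genes Igfbp1, Igfbp2, Igfbp3 and Igfbp4, and Igfals, which encodes the acid-labile subunit. All 7 were measured, each by 1 probe set, among 15780 probe sets with a single gene symbol. Primary hepatocytes, which make most of the plasma proteins of the blood, came from male C57BL/6J mice aged 8 weeks. The 4 groups had 3 arrays each: RNA precipitated with an anti-CNOT6L antibody from wild-type cells (WT IP), total RNA of wild-type cells (WT Input), RNA precipitated with the same antibody from Cnot6l knockout cells (KO IP), and total RNA of knockout cells (KO Input). CNOT6L is an enzyme of CCR4-NOT that shortens the poly(A) tails of mRNAs, and the knockout precipitate was the negative control of the precipitation. No treatment is named, so all groups share the strain, the sex, the age and the isolation of the cells, and the labels do not name the allele behind the knockout. The titles call the replicates biological and number them 1 to 3, but do not say whether each came from a separate animal, so p-values measure the spread between these preparations.

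Growth hormone from the pituitary binds its receptor on hepatocytes and, through JAK2 and STAT5B, drives transcription of Igf1 and Igfals. The liver is the main source of circulating IGF1, most of which travels in a ternary complex with IGFBP3 and the acid-labile subunit. The other binding proteins form smaller complexes, and transcription of Igfbp1 is known to be switched off by insulin through FOXO factors.

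The promoter sequences of Igfbp1 and Igfbp3 are shown because these are neighbouring genes on mouse chromosome 11 whose spread between replicate numbers differed. The means over the arrays of a number spanned 0.53 log2 units in Igfbp1 and 5.18 in Igfbp3. Their levels over the 12 arrays still correlated at 0.447 (Pearson r). Whether the sequences have a part in this was not tested. Each window runs from 250 bases before to 50 bases after the annotated start, 5′ to 3′ on the strand of the gene, and is taken from RefSeq on GRCm38.p6. Capitals in the Igfbp1 window mark the letters CAAAACA and CAAAATA (searched on both strands), the core letters of the insulin response sequence bound by FOXO factors. Capitals in the Igfbp3 window mark the letters TATATA.
Igfbp1 promoter, chr11:7197537-7197836, plus strand: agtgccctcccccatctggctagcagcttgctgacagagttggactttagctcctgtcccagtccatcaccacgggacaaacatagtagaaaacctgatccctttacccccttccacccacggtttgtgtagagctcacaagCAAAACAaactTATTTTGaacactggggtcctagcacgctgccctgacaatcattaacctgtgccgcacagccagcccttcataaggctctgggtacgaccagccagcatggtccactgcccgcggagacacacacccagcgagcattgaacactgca
Igfbp3 promoter, chr11:7213874-7214173, minus strand: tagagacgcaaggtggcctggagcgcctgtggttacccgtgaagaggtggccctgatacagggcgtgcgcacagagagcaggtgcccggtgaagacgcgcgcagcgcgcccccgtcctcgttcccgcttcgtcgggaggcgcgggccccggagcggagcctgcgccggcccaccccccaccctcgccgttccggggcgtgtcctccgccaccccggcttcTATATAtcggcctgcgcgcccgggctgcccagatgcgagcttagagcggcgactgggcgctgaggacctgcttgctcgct
The Igfbp1 window held 1 match to CAAAACA and 1 to CAAAATA, 4 bases apart and on opposite strands, whereas 6.28% and 4.36% of 32851 such windows hold each motif. The Igfbp3 window held neither of these motifs and 1 match to TATATA, which 5.67% of windows hold. It had 37 CpG dinucleotides and 71.7% G and C, against 8 CpG and 54.3% in the Igfbp1 window and medians of 7 and 52.7% over all windows. All 7 genes had an entry, with 11 windows in all, and CAAAACA and CAAAATA were found in no window of the other 6. A Ghr window also held 2 matches to TATATA, and the windows of the remaining genes held none. The STAT motif TTCNNNGAA was searched on both strands as well and was found in 2 of the 3 Igfals windows, where 8.3% of all windows hold it. These matches describe letters only and show no binding.

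Cnot6l itself averaged 9.23 ± 0.11 in KO Input and 9.02 ± 0.54 in WT Input on the log2 scale (SD, n = 3 each; two-sided exact permutation p = 0.7, where 3 against 3 can give no p below 0.1). The labels do not say which stretch of the gene was deleted or where the probes sit, so this level checks nothing about the genotypes, and directions rest on the labels. Of 7 hepatocyte markers 5 were measured, among them albumin at 14.23 to 15.12, and all 5 passed the filter on low levels. The other liver cell lists had 2 of 7 Kupffer cell, 3 of 7 sinusoidal endothelial, 3 of 7 stellate, 2 of 4 cholangiocyte and 1 of 3 leukocyte markers above it. The array medians lay between 6.31 and 6.45.

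Levels are the deposited log2 values, in the order of replicate numbers 1, 2 and 3, so that 1 unit is a doubling, and they are compared within a gene only. Igf1, the ligand, read 9.12, 9.54 and 10.26 in WT IP and 9.70, 9.94 and 10.77 in WT Input. It read 8.97, 9.85 and 10.29 in KO IP and 9.63, 10.03 and 10.67 in KO Input. The array numbered 3 was the highest in every group, the groups overlapped, and the order of the means from WT Input over KO Input and KO IP to WT IP held no step as large as the SDs of 0.52 to 0.67.

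Ghr, the receptor, read 9.45, 9.41 and 9.94 in WT IP and 9.46, 9.20 and 9.95 in WT Input. In knockout cells it read 8.84, 9.37 and 9.82 in KO IP and 9.41, 9.40 and 9.48 in KO Input. Its 12 values spanned 1.11 units, the narrowest range among the 7 genes, and its group means ran from 9.60 in WT IP through 9.54 in WT Input and 9.43 in KO Input to 9.34 in KO IP, with overlapping groups throughout.

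Igfbp3, which carries IGF1 in the ternary complex, read 7.58, 7.02 and 12.16 in WT IP and 8.29, 7.03 and 12.29 in WT Input. It read 6.12, 6.52 and 11.51 in KO IP and 7.19, 6.74 and 12.07 in KO Input. The array numbered 3 stood far above the other 2 in all 4 groups, and the 4 arrays numbered 1 still ranged from 6.12 in KO IP to 8.29 in WT Input. Igfals, the acid-labile subunit of the same complex, read 8.47, 7.83 and 8.57 in WT IP and 8.72, 8.49 and 9.51 in WT Input. Its knockout values were 8.15, 8.38 and 9.41 in KO IP and 8.56, 8.80 and 10.17 in KO Input. Number 3 was again the highest in every group, the means ran from KO Input over WT Input and KO IP to WT IP, and no neighbouring pair of means differed beyond the SDs of 0.40 to 0.87.

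Igfbp4, an inhibitor of IGF action that the protease PAPP-A cleaves, read 11.38, 9.79 and 11.71 in WT IP and 11.96, 11.01 and 12.34 in WT Input. It read 10.58, 10.27 and 11.32 in KO IP and 11.39, 11.07 and 11.87 in KO Input. Number 2 was the lowest in every group, and the means fell in the order WT Input, KO Input, WT IP and KO IP, with overlapping groups.

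Igfbp1, the insulin-repressed binding protein, read 13.66, 13.67 and 13.98 in WT IP and 13.27, 12.92 and 13.98 in WT Input. It read 13.56, 12.77 and 13.09 in KO IP and 13.75, 13.20 and 13.63 in KO Input. All 3 WT IP values lay above all 3 KO IP values, and the other pairs of groups overlapped. The highest value on each array was 14.78 to 15.14, so Igfbp1 lay near the top of the scale, and whether that narrowed its differences was not tested. Igfbp2, a binding protein of fetal and adult liver, read 6.94, 7.99 and 7.30 in WT IP and 7.06, 8.67 and 8.39 in WT Input. In knockout cells it read 6.28, 8.13 and 6.86 in KO IP and 6.40, 8.84 and 7.28 in KO Input. It was highest at number 2 and lowest at number 1 in every group, unlike the other 6 genes, and the groups overlapped.

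**Figure D1:**
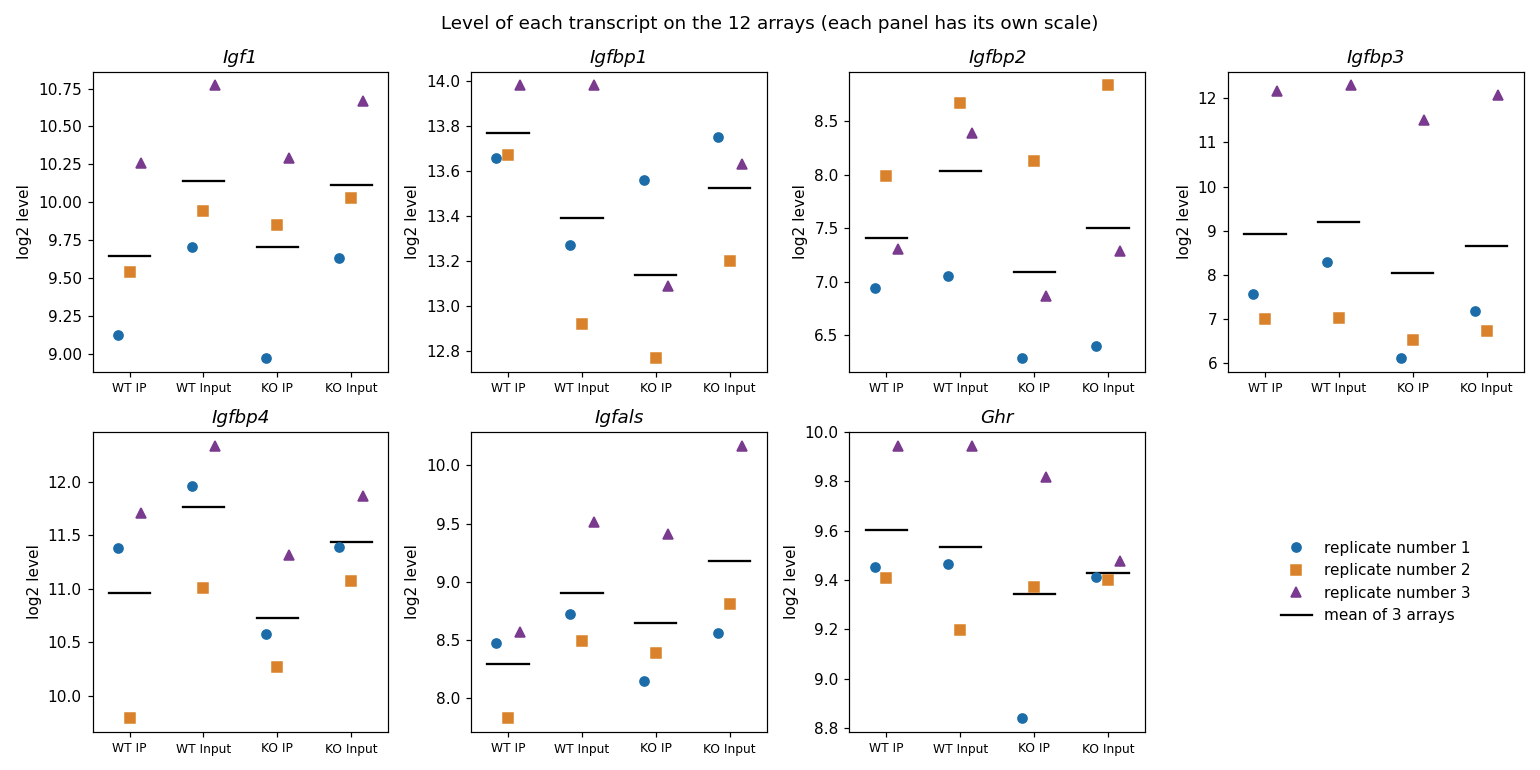
The log2 level (vertical axis, a separate scale per panel) of each of the 7 genes is plotted for the 3 arrays of WT IP, WT Input, KO IP and KO Input, with symbols for the replicate number and a bar at the group mean. Igfbp3 stood at 11.51 to 12.29 in the 4 arrays numbered 3 and at 6.12 to 8.29 in the other 8.

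The preparation number separated these genes more than fraction or genotype did. Igfbp3 showed it most: its means over the 4 arrays of a number were 7.30, 6.83 and 12.01, a span of 5.18 units or 36.2-fold, the 6th-largest such span among 9496 genes tested, for which the median span was 0.78. The number accounted for 95.7% of the sum of squares of Igfbp3 over the 12 arrays, for 78.0% in Igf1, 73.1% in Igfbp2, 57.6% in Ghr, 57.2% in Igfals, 55.7% in Igfbp4 and 35.6% in Igfbp1, and the median over all genes was 47.5%. Fraction took 29.5% in Igfbp4, 21.5% in Igfals and 18.4% in Igf1, above the median of 12.9% over all genes, and 0.00245% to 9.82% in the others. Genotype took 0.0304% to 10.3% in the 7 genes. Igf1, Igfbp3 and Ghr had all 4 arrays numbered 3 above the other 8, as did 8.68% of all genes tested. Since a number holds 1 array of every group, these differences lie between preparations of cells and are a description, with no test.

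In rat liver IGFBP3 mRNA is known mainly from nonparenchymal cells, so markers of those cells were read beside it. The summed level of the 7 sinusoidal endothelial markers was 9.03 to 9.37 in the arrays numbered 3 and 8.06 to 9.03 in the other 8, and Fcgr2b alone of the 7 had all arrays numbered 3 (7.20 to 7.64) above the rest. The 7 stellate cell markers summed to 9.37 to 10.00 at number 3, against 8.23 to 9.56 elsewhere, and Dcn, at 8.60 to 9.65, was the only 1 of the 7 with all arrays numbered 3 above the rest. Reln, another stellate marker, lay at 4.30 to 6.28 there, against 5.89 to 7.16 at number 1 and 7.23 to 8.55 at number 2. The 7 Kupffer cell markers did not separate number 3, with 10.74 to 11.72 there and 10.56 to 12.31 elsewhere. The 4 cholangiocyte markers summed to 8.97 to 9.22 at number 3, against 7.71 to 8.17 at number 1 and 8.19 to 9.13 at number 2. The 5 hepatocyte markers summed to 15.28 to 15.77 at number 3 and 15.44 to 16.03 elsewhere, and the liver transcription factor gene Hnf4a lay at 7.38 to 7.87 there, below its 8.01 to 9.63 in the other 8 arrays. The defining markers Lrat, Clec4g, Pecam1, Marco and Timd4 were all below the filter of 5.57. The part of these cells in the Igfbp3 result was not tested, and in bulk RNA more cells of a type cannot be told apart from more RNA per cell.

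The genes closest to Igfbp3 in pattern over the 12 arrays were Plat, the tissue plasminogen activator (Pearson r = 0.984), Mpzl1 (0.982) and the thrombin receptor gene F2r (0.978). Plat read 11.78 to 12.55 at number 3 and 7.73 to 9.52 in the other 8 arrays. These r describe 12 arrays that share preparations, and they were picked as the highest of all genes tested. Igf1 was closest to the sialic acid transporter gene Slc35a1 (0.979), Ganab (0.974) and Tmbim6 (0.973), and Igfbp4 to haptoglobin, Hp (0.970), Emc10 (0.962) and Atp6v0e2 (0.954). Igfals was closest to Man2b1 (0.960), Iyd (0.949) and Steap3 (0.949), Ghr to Fam20a (0.945), Spink1 (0.937) and Ccnyl1 (0.920), and Igfbp2 to Otub1 (0.941), the apolipoprotein gene Apoa2 (0.905) and Bbx (0.894). Igfbp1 had the weakest matches, with Clk2 (0.895), 1810055G02Rik (0.873) and the splicing factor gene Rbm5 (0.864). Between members, Igfbp3 and Ghr (0.818), Igf1 and Igfbp3 (0.803) and Igf1 and Igfals (0.796) were the most alike, and Igfbp1 and Igfbp2 the least (-0.32).

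**Figure D2:**
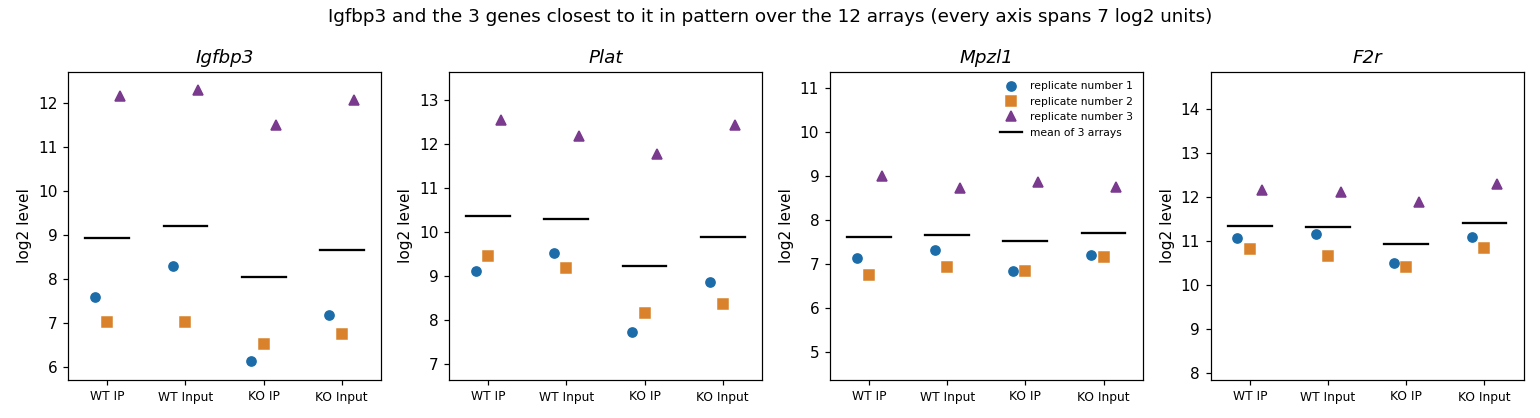
The log2 level (vertical axis, every panel spanning the same number of units) of Igfbp3 and of Plat, Mpzl1 and F2r is plotted by group, with symbols for the replicate number and a bar at the group mean. In all 4 genes the arrays numbered 3 lay above the other 8.

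Specific enrichment asks whether a transcript was recovered over its input more strongly in wild-type cells than in the negative control. It is the WT IP minus WT Input difference less the KO IP minus KO Input difference. None of the 7 genes was called (limma over 9496 genes, Benjamini-Hochberg adjusted p under 0.05, which 0.0105% of genes reached), and 0 of 7 had an unadjusted p under 0.05, against 1.98% of all genes. Igfbp1 had the largest value, 0.77 ± 0.47 (SE; adjusted p = 1.0), a 1.71-fold difference with a 95% interval of -0.26 to 1.81. Its IP minus input differences were 0.39, 0.75 and 0.0036 in the 3 wild-type preparations and -0.20, -0.43 and -0.54 in the 3 knockout preparations. All 3 wild-type values were thus above 0, one of them barely, and all 3 knockout values below it, a pattern that 1.66% of all genes showed.

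The same-number arrays deviated together, so the fit was repeated with the preparation as a block. Igfbp1 then had an interval of 0.080 to 1.47 and an unadjusted p of 0.0327, a level under 0.05 that 5.54% of genes reached as higher, and was not called (limma adjusted p = 0.714, where 0.0211% of genes passed). The other 6 genes lay between -0.22 in Igfbp2 and 0.33 in Igfbp3, and their limma adjusted p was 1.0 without the block and 0.9999 with it. With the block their 95% intervals all lay between -0.995 and 1.10. Tec, the gene called in the fit without the block, had 3.37. In that fit the interval of Igfbp3 ran from -5.67 to 6.33 and held the value of Tec. Igf1 had -0.089 with -0.72 to 0.54, Igfbp4 -0.083 with -0.76 to 0.60, Igfals -0.089 with -0.78 to 0.60 and Ghr 0.15 with -0.57 to 0.88. The median of the 7 genes was -0.083, against 0.048 over all genes.

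**Figure D3:**
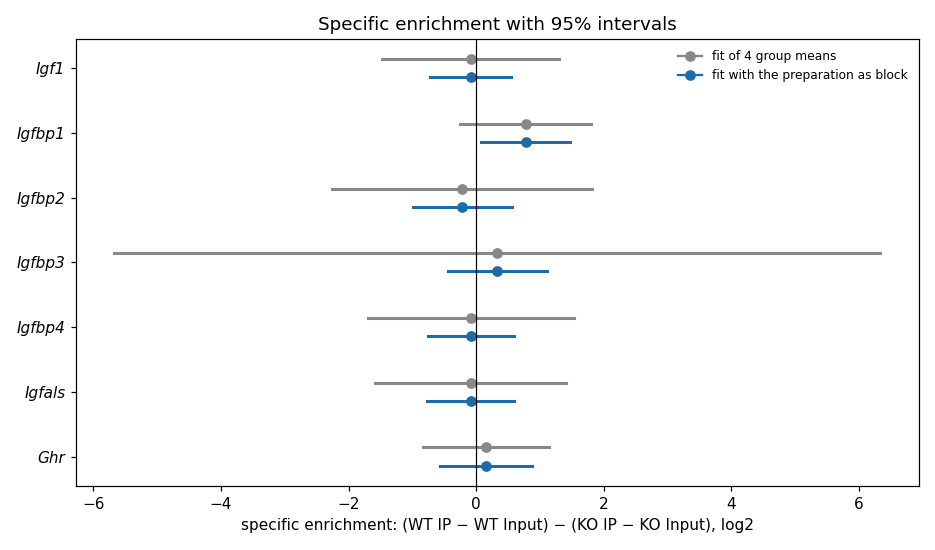
Points give specific enrichment on the log2 scale (horizontal axis) for the 7 genes and bars its 95% interval, in grey from the fit of 4 group means and in blue from the fit with the preparation as block. The interval with the block lay above 0 in Igfbp1 (0.080 to 1.47) and held 0 in the other 6 genes.

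Setting the precipitates side by side gave WT IP over KO IP differences of 0.63 ± 0.33 (SE) for Igfbp1 and 0.87 ± 1.94 for Igfbp3, and neither was called (limma adjusted p = 0.9997 for both). Igfbp1 averaged 13.77 ± 0.18 in WT IP and 13.14 ± 0.40 in KO IP (SD, n = 3 each), a 1.55-fold difference. It was the only one of the 7 genes whose 2 groups did not overlap, which held for 6.79% of all genes (5.44% as higher in WT IP). Igfbp3 was higher in WT IP in 3 of 3 same-number pairs, by 1.46, 0.50 and 0.65, Igfbp1 by 0.11, 0.90 and 0.89, and Ghr by 0.61, 0.038 and 0.13. These are 3 of the 7 genes, and 20.1% of all genes were higher in all 3 pairs. With the number as a block, Igfbp1 had an unadjusted p of 0.0231 and Igfbp3 of 0.0101, a level under 0.05 that 11.2% of genes reached as higher, and their limma adjusted p was 0.246 and 0.166. The remaining genes lay between -0.36 in Igfals and 0.32 in Igfbp2. By limma 0 of 7 were called without the block, where 0.253% of genes were, and 0 with it, where 2.45% were. Without the block 0 of 7 had an unadjusted p under 0.05, against 5.39% of genes.

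Precipitate against input, within a genotype, gave lower levels in the precipitate for most of these genes and in both genotypes. From each preparation's own input, Igf1 differed by -0.58, -0.40 and -0.51 in wild type and by -0.66, -0.18 and -0.38 in knockout. Igfbp4 differed by -0.57, -1.22 and -0.63 in wild type and by -0.81, -0.81 and -0.56 in knockout, and Igfals by -0.25, -0.66 and -0.95 and by -0.41, -0.42 and -0.75. Igf1, Igfbp2, Igfbp3, Igfbp4 and Igfals were lower in the precipitate in 6 of 6 preparations, as were 23.3% of all genes tested, Ghr was lower in 4 and Igfbp1 in 3. Within wild type the difference of Igfbp4 was -0.81 ± 0.52 (SE; adjusted p = 0.613) and within knockout -0.72 ± 0.52 (adjusted p = 0.651). No gene of the 7 was called within a genotype (limma, without the block 0.105% of genes in wild type and 0% in knockout, with it 7.02% and 6%). With the block 4 of the 7 had an unadjusted p under 0.05 as lower in wild type (18.4% of genes) and 3 in knockout (22.3%), and without it none had (10.6% and 11%).

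Averaged over both genotypes, a comparison added after these values were seen, the precipitates had lower Igfbp4, Igfals and Igf1 than the inputs in the fit with the preparation as block. Igfbp4 averaged 10.84 ± 0.75 in the precipitates and 11.61 ± 0.53 in the inputs (SD, n = 6 each), a difference of -0.77 ± 0.15 (SE with the block; limma adjusted p = 0.0102). Igfals averaged 8.47 ± 0.53 in the precipitates and 9.04 ± 0.66 in the inputs, a difference of -0.57 ± 0.15 (adjusted p = 0.0267). Igf1 averaged 9.67 ± 0.56 in the precipitates and 10.12 ± 0.48 in the inputs, a difference of -0.45 ± 0.14 (adjusted p = 0.0425). Igfbp2 (-0.52, adjusted p = 0.0525) and Igfbp3 (-0.45, adjusted p = 0.0816) did not pass, and Igfbp1 (-0.0038) and Ghr (-0.0099) lay near 0. These 3 calls of 7 stand beside 19.7% of all genes called lower with the block (26.3% in either direction), and without the block 0 of 7 passed, where 2.29% of genes did, and 0 of 7 had an unadjusted p under 0.05, where 21.3% did.

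The calls changed with the scale and with the arrays kept. With quantile normalization added to the block, Igfbp4 passed (-0.58, adjusted p = 0.0371) while Igfals (-0.37, 0.115) and Igf1 (-0.28, 0.186) did not, and the median of all genes moved by 0.12 units. Leaving out all arrays numbered 2 or all numbered 3 left 0 calls, although the difference of Igfbp4 was -0.64 without number 2 (adjusted p = 0.0921) and -0.85 without number 3 (adjusted p = 0.0607), with 8 arrays in each fit. Without number 1, Igfbp2, Igfbp4 and Igfals passed and Igf1 did not (adjusted p = 0.136). The share of all genes called in these alternative fits is not given here. Calls lost with 8 arrays therefore cannot be told apart from the effect of fewer arrays. Some other values differed between precipitates and inputs in both genotypes. Spiked poly-A control probe sets read 4.47 to 5.99 units more in a precipitate than in its own input, and the excess of 3′ over 5′ Gapdh signal grew by 0.85 to 1.95 units. The 5 hepatocyte markers measured summed to 15.28 to 15.80 in the precipitates of both genotypes and to 15.72 to 16.03 in the inputs, and the 7 Kupffer cell markers to 10.56 to 11.14 in the precipitates and 11.59 to 12.31 in the inputs, of which Cd68 made up the greater share. The hepatocyte ranges overlapped, as did those of the remaining lists. Sinusoidal endothelial markers summed to 8.17 to 9.19 in precipitates and 8.06 to 9.37 in inputs. Stellate markers summed to 8.34 to 9.56 and 8.23 to 10.00. Cholangiocyte markers summed to 7.71 to 9.13 and 7.88 to 9.22, and leukocyte markers to 5.76 to 6.83 and 6.395 to 6.96. The part of all these values in the differences of the members was not tested.

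**Figure D4:**
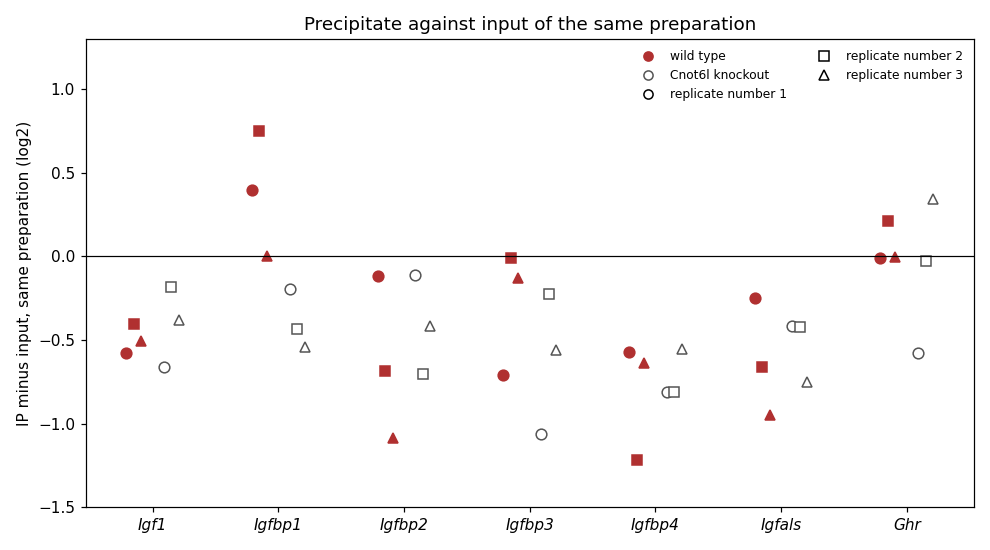
The difference between precipitate and input of the same preparation (vertical axis, log2) is plotted for each gene, filled in wild type and open in Cnot6l knockout, with symbols for the replicate number. Igf1, Igfbp2, Igfbp3, Igfbp4 and Igfals lay below 0 in all 6 preparations, whereas Igfbp1 lay at 0.0036 to 0.75 in wild type and at -0.54 to -0.20 in knockout.

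Knockout against wild-type input asks whether steady-state levels differed without CNOT6L. None of the 7 genes was called (limma, 0% of all genes with and without the number as block), and 0 of 7 had an unadjusted p under 0.05 in either fit, against 0.0527% and 0.558% of genes. The differences ran from -0.54 ± 1.94 (SE) in Igfbp3 and -0.53 ± 0.66 in Igfbp2 to 0.27 ± 0.48 in Igfals, all at an adjusted p of 1.0. Igf1 averaged 10.11 ± 0.52 in KO Input and 10.14 ± 0.56 in WT Input (SD, n = 3 each), a difference of -0.026 with a 95% interval of -1.01 to 0.95. Igfbp3 was lower in KO Input in 3 of 3 same-number pairs, by -1.10, -0.28 and -0.23, as 13% of all genes were. The direction of the other 6 genes was not shared by all 3 pairs.

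Among other genes of the axis, Socs3, a feedback inhibitor of cytokine receptor signalling that growth hormone induces, was called in WT IP over WT Input and in WT IP over KO IP. It read 9.41, 8.73 and 9.35 in WT IP and 6.22, 5.83 and 7.03 in WT Input, and 6.70, 6.87 and 7.32 in KO IP and 6.21, 6.04 and 6.86 in KO Input. WT IP lay above all other groups without overlap, by 2.80 ± 0.37 (SE; limma adjusted p = 0.0124) over WT Input and by 2.20 ± 0.37 (adjusted p = 0.0368) over KO IP. Its specific enrichment of 2.21 ± 0.53 was not called (adjusted p = 0.782, and 0.0800 with the block). Of 15 genes of growth hormone receptor signalling 12 were measured and 11 tested, and Socs3 was the only one called in these 2 comparisons. Of all genes, 0.105% were called in WT IP over WT Input and 0.253% in WT IP over KO IP. WT IP lay above KO IP without overlap in 5.44% of all genes. The medians over the list were 0.0022 and 0.28, against -0.11 and 0.036 over all genes. Over both genotypes Socs3 was again called (1.70, adjusted p = 0.0154), as were 2.29% of all genes in either direction. With the block Stat5a (-0.70, adjusted p = 0.0269) and Grb14 (-0.49, adjusted p = 0.0399) passed as lower in the precipitates, 2 of 11 where 19.7% of all genes did. Stat5a read 5.49, 5.91 and 5.51 in WT IP and 6.37, 5.33 and 5.21 in KO IP. Most of these values lay below the filter of 5.57, so the size of the Stat5a difference is uncertain. Jak2, the kinase of the receptor, had 0.75 in WT IP over WT Input (adjusted p = 0.453) and Stat5b, its main transcription factor in liver, 0.70 in WT IP over KO IP (adjusted p = 0.887).

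Genes known to respond to growth hormone in liver had 7 tested of 11 measured, and 0 were called without the block in any comparison (at an unadjusted p under 0.05, Bcl6 in WT IP over KO IP and no other). Bcl6, a repressor that growth hormone lowers, had 0.86 ± 0.31 (SE) in WT IP over KO IP (limma adjusted p = 0.621). It passed with the number as block (adjusted p = 0.0443). In that comparison 5.39% of all genes had an unadjusted p under 0.05 without the block, and 2.45% passed with it. Cish, another feedback inhibitor, had 0.89 in WT IP over WT Input (adjusted p = 0.512).

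The list of other IGF ligands, receptors, binding proteins and proteases had 6 of 14 genes above the filter. Igf2, Igf1r, Igfbp5, Pappa, Pappa2, Stc1, Stc2 and Htra1 were too dim to test. Adamts1, a secreted metalloprotease, read 10.18, 11.35 and 11.20 in WT IP and 7.42, 8.17 and 9.13 in WT Input, and 7.04, 7.44 and 9.17 in KO IP and 7.38, 8.27 and 9.73 in KO Input. WT IP again lay above every other group, and it lay above KO IP without overlap in 5.44% of all genes. The difference of Adamts1 over WT Input was 2.67 ± 0.69 (SE; limma adjusted p = 0.188, and 0.00546 with the block). Over KO IP it was 3.03 ± 0.69 (adjusted p = 0.157, and 0.00121 with the block). With the block 7.02% of all genes passed in WT IP over WT Input and 2.45% in WT IP over KO IP. Insr, the insulin receptor, was lower in WT IP than in WT Input by -1.07 ± 0.31 without passing (adjusted p = 0.238), and passed with the block (adjusted p = 0.0295). The WT IP values of Insr were 5.41, 6.24 and 5.47, partly below the filter of 5.57, so the size of its difference is uncertain. Igf2r, the clearing receptor for IGF2, also differed by preparation, with 9.52 at number 3 and 6.79 at number 1 in WT IP and 11.03 and 7.90 in WT Input. With the block Igf2r was lower in the precipitates of wild type (-1.34, adjusted p = 0.0430) and of knockout (-1.60, adjusted p = 0.0337). Without the block it did not pass (limma adjusted p = 0.7228 and 0.6695). As lower with the block, 4.61% of all genes passed in wild type and 5.28% in knockout. Igfbp7 reached 9.59 to 10.94 at number 3 and 4.70 to 7.57 in the other arrays.

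Downstream of the IGF1 and insulin receptors, 13 of 14 measured genes were tested, and 0 passed within a genotype without the block. In that fit 4 of the 13, Shc1 among them, had an unadjusted p under 0.05 as lower in each genotype. The share of all genes was 6.03% in wild type and 8% in knockout. With the block Shc1 and Akt1 passed in wild type (adjusted p = 0.0289 and 0.0460), and Shc1, Akt1 and the mTOR regulator Tsc2 in knockout (0.0231, 0.0310 and 0.0357), all as lower in the precipitate, as were 4.61% of all genes in wild type and 5.28% in knockout. The adaptor Shc1 averaged 5.37 in WT IP and 7.45 in WT Input, and 4.59 in KO IP and 7.22 in KO Input. Both precipitate means of Shc1 lay below the filter of 5.57, which it passed through the inputs, so the size of its difference is uncertain and its calls are no support for a change of the list. Over both genotypes Shc1 (-2.35, adjusted p = 0.0262) and the kinase Akt1 (-1.75, adjusted p = 0.0321) were lower in the precipitates without the block. These are 2 of 13 with Shc1 counted and Akt1 alone without it, where 2.29% of all genes were called in either direction. Akt2 and Tsc2 also passed with the block (adjusted p = 0.0125 and 0.00609). That made 4 of 13 lower with it, Shc1 among them, where 19.7% of all genes were. Foxo1, a FOXO factor known to act on Igfbp1, was not called in any comparison with or without the block. Of the 3 IGF2 mRNA-binding proteins 2 were measured and 0 passed the filter.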

How the data were processed

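RNA of 12 samples in 4 groups of 3 was hybridised to Affymetrix arrays, 1 sample per array. The authors deposited 1 log2 value per probe set and array, as the range of the values shows; no source used here gives the background correction, normalization or summarisation. Of 16539 probe sets, 64 were controls and 15780 had 1 gene symbol (15752 matched RefSeq by Entrez number, and 0 symbols changed). Genes with a mean at or above the 40th percentile (5.57) were tested, 9496 in all, the 7 members among them. Group means were fitted to all 12 arrays with limma 3.58.1 in R 4.3.3 (8 residual degrees of freedom, two-sided moderated tests, Benjamini-Hochberg adjustment over all 9496 genes), and the procedure was tested on simulated data. Arrays have no read depth; their number limits precision.

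Replicate numbers pair the samples. After removal of group means, 18 same-number pairs of arrays correlated at 0.453 to 0.936 and others at -0.71 to 0.069, and the series text says that every preparation was split into IP and input. The block was the preparation (genotype and number) for IP against input and for specific enrichment, and the number between genotypes.

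Members, lists and tests were chosen with earlier results of these data known. All members are named, and of each list the called genes or up to 3 with the smallest p. Alternatives were no filter, quantile normalization, a trended robust fit, only the compared arrays, arrays left out and the block; leaving out a whole number, the number as block and the comparison over both genotypes were chosen after seeing the data. Some genes of the lists were not analysed here. Figures used Python 3.11.15 and matplotlib 3.10.9.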

Additional observations from a re-analysis of the deposited data

Results flagged for a closer look

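Adamts1 differed between the genotypes in its precipitate over input value by 3.25 on the log2 scale in a test of the difference itself, with an adjusted p of 0.0460 with the preparation as block and 1.0 without it (limma).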

How the results depend on the processing

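No alternative called any of the 7 genes within a genotype, between inputs, between precipitates or for specific enrichment. Of the log2 differences recomputed for the 7 genes, 90 changed sign, 10 newly passed and the rest kept direction and side of the threshold. All 10 new passes were in the comparison over both genotypes. There the 0 calls became 3 with the replicate block, 3 with the block by number, 1 with the block and quantile normalization, 3 with the block without number 1 and 0 without number 2 or 3. Quantile normalization turned Ghr to 0.14 in KO IP over KO Input, where it moved the median of all genes by 0.16, and over both genotypes Ghr to 0.18 and Igfbp1 to 0.0095, with and without the block. With the block the calls over all genes rose from 10 to 667 in WT IP over WT Input. In KO IP over KO Input they rose from 0 to 570. They rose from 24 to 233 in WT IP over KO IP, where the block was the number. For specific enrichment they rose from 1 to 2, and over both genotypes from 217 to 2499.

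With arrays left out, signs turned in both directions for small or preparation-bound values. In WT IP over WT Input, Igfbp3 ran from -1.90 to 1.26 and Ghr from -0.10 to 0.27. In KO IP over KO Input, Igfbp3 ran from -2.34 to 1.09, Igfbp2 from -0.97 to 0.25 and Ghr from -0.32 to 0.16. In KO Input over WT Input the ranges were -0.31 to 0.29 for Igf1, -0.0945 to 0.43 for Igfbp1, -1.20 to 0.0202 for Igfbp2, -2.24 to 1.01 for Igfbp3, -0.22 to 0.58 for Igfals and -0.27 to 0.10 for Ghr. In WT IP over KO IP they were -0.43 to 0.23 for Igf1, -0.0887 to 0.83 for Igfbp2, -0.75 to 2.60 for Igfbp3, -0.13 to 0.83 for Igfbp4 and -0.70 to 0.0238 for Igfals. For specific enrichment they were -0.45 to 0.23 for Igf1, -0.88 to 0.34 for Igfbp2, -1.37 to 2.06 for Igfbp3, -0.47 to 0.50 for Igfbp4, -0.58 to 0.29 for Igfals and -0.10 to 0.40 for Ghr. Over both genotypes they were -0.12 to 0.14 for Igfbp1, -1.31 to 0.40 for Igfbp3 and -0.13 to 0.13 for Ghr. Without WT IP replicate 2, the difference of Igfbp4 in WT IP over WT Input was -0.22, the weakest of its range of -1.19 to -0.22. Igfbp1 kept a positive sign in specific enrichment (0.54 to 1.07) and in WT IP over KO IP (0.45 to 0.90). A fit without the block that drops 1 array leaves the replicate numbers uneven between the groups, whereas dropping a whole number keeps them even. Igfbp3 in precipitate over input was then -0.07, -0.42 and -0.36 in wild type without number 1, 2 and 3. In knockout it was -0.39, -0.81 and -0.64. Igfbp4 in wild type was -0.60 without number 2. Ghr still changed sign, to -0.0055 without number 2 in wild type and 0.16 without number 1 in knockout. The causes of these changes were not tested. With 3 arrays a group, the wide intervals of Igfbp3 and Igfbp2 without the block limit what could be seen.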
